A study of Arabidopsis thaliana with 4 samples.

Results

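AKINBETA1 and 5 genes known only by their locus codes (AT3G15450, AT3G15630, AT5G19120, AT2G20670 and AT2G38820) were described together. They were picked because they stood lower with dexamethasone in these same arrays, and because genes of this kind are known as repressed by sugar. Each of the 6 was read by 1 probe set. In the annotation used here, 13286 genes had a probe set of their own, among 22746 probe sets tested. That annotation left 8730 probe sets unnamed, so a gene counted below as lacking a probe set may still be on the array. The deposited values of that one contrast thus chose the genes, so their levels and differences are given as a description and no test of them is made.

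The study profiled shoot apices of 8-day-old Arabidopsis thaliana seedlings with 4 arrays. The treated group (2 arrays) came from seedlings held in liquid medium containing 30 µM dexamethasone for 1 h, and the untreated group (2 arrays) from seedlings held as long in the same medium lacking it. All plants were of genotype Ws-0 35S:LEC1-GR, in which the 35S promoter, active in most tissues, drives a fusion of LEC1, a seed development factor of the NF-Y B type, to the hormone-binding part of the glucocorticoid receptor (GR), and all grew under 16 h of light and 8 h of dark at 20 °C. The medium of both groups held 1% sucrose, so no array shows these genes without added sugar, and no plants lacking the fusion were among the samples, so dexamethasone alone and LEC1-GR activity cannot be told apart.

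SnRK1 is the plant kinase complex that is active when energy is short. It resembles yeast SNF1 and animal AMPK, and it joins a catalytic alpha subunit to a regulatory part of the gamma type through a beta subunit, which sets where the complex sits and what it binds. AKINBETA1 encodes one of these beta subunits. Low sugar and darkness raise a wide set of plant transcripts, many of which encode enzymes that break down amino acids and other reserves, and sugar lowers them again.

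The values are log2 RMA expression values, one for each probe set and array, so a difference of 1 is a 2-fold change. Array medians lay between 6.56 and 6.61. As a control level, the brightest of the 27 Bacillus control probe sets was taken in each array, and it lay between 4.68 and 4.86. All 6 genes lay above it in all 4 arrays, by at least 1.11. Across probe sets the 2 dexamethasone arrays correlated at 0.992, the 2 untreated arrays at 0.983, and arrays of different groups at 0.969 to 0.979. Only 2 of 9 shoot apex markers had a probe set of their own in the annotation used. YAB3, a leaf polarity gene, had 7.81 and 7.66 with dexamethasone against 7.79 and 7.82 without it, and CLV3, the stem cell peptide gene, did not exceed the control level in 3 of the 4 arrays, so the labelled tissue could be checked only in part.

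AKINBETA1 (AT5G21170) had 8.66 and 8.15 in the dexamethasone arrays, against 10.04 and 9.97 in the untreated arrays. Both dexamethasone arrays lay below both untreated arrays, and the pair with dexamethasone was the wider one. The group means were 8.40 ± 0.36 with dexamethasone and 10.003 ± 0.05 without it (SD, n = 2 each), a log2 difference of -1.60 ± 0.20 (limma standard error), or 3.03-fold lower. Of the 22746 probe sets, 73 had a lower difference than AKINBETA1. Bulk tissue does not separate a loss of transcript per cell from a change in which cells were collected.

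AT3G15450, of a small family named after its YGL and LRDR motifs and after induction by aluminium, stood at 10.47 and 10.64 with dexamethasone against 13.02 and 13.17 without it. The replicates of each group were close to each other, and the gap between the lowest untreated and the highest dexamethasone array was 2.38. The log2 difference was -2.54 ± 0.14, which is 5.82-fold lower. AT3G15630, a plant gene of unknown function, had 7.84 and 8.05 with dexamethasone against 10.31 and 10.72 without it. Its untreated arrays were the further apart, and the groups did not overlap. The log2 difference was -2.57 ± 0.19, or 5.94-fold lower.

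AT5G19120, which encodes a protein of the aspartyl protease type, had 8.53 and 8.69 with dexamethasone against 10.80 and 10.50 without it. The groups stood apart by 1.81 at their nearest arrays, and the log2 difference was -2.04 ± 0.16, or 4.11-fold lower.

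AT2G20670 and AT2G38820 belong to the DUF506 family, whose shared domain has no assigned function. AT2G20670 read 6.21 and 6.80 with dexamethasone against 9.84 and 9.63 without it. It had the largest difference of the 6, -3.23 ± 0.23 on the log2 scale, and its level with dexamethasone was 10.6% of the untreated one. AT2G38820 read 5.85 and 6.47 with dexamethasone against 8.23 and 8.01 without it, a log2 difference of -1.96 ± 0.24, or 3.90-fold lower. In both DUF506 genes the dexamethasone arrays were further apart than the untreated ones, and the groups did not overlap.

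**Figure D1:**
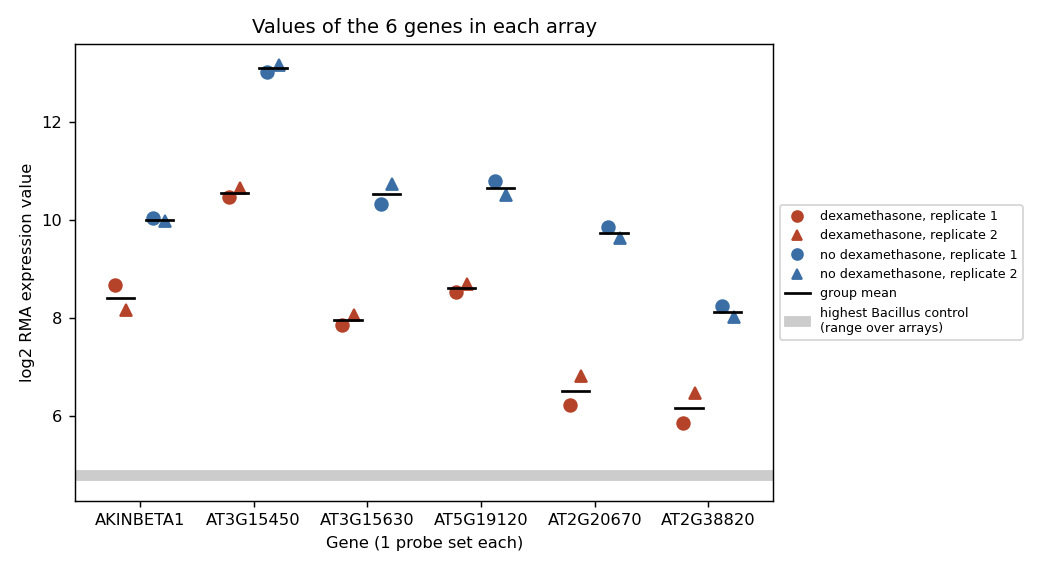
Log2 RMA expression values (vertical axis) of the 6 genes in the 2 dexamethasone arrays (red, left) and the 2 untreated arrays (blue, right), with group means as bars and the range of the control level as a grey band. For each gene both red points lie below both blue points, and all points lie above the band.

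In 6 of the 6 genes both dexamethasone arrays lay below both untreated arrays, an arrangement found in 24.8% of all tested probe sets. Since the genes were picked on this contrast, nothing is read from that count. The gap between the nearest arrays of the groups ran from 1.31 in AKINBETA1 to 2.83 in AT2G20670. The median of the 6 differences was -2.29, against -0.02 over all tested probe sets. The 4 genes other than AKINBETA1 and AT2G20670 lay between these, with 10 probe sets below AT3G15630 in difference, 13 below AT3G15450, 30 below AT5G19120 and 32 below AT2G38820. No threshold was set for the choice, and other genes with falls as large were not picked.

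**Figure D2:**
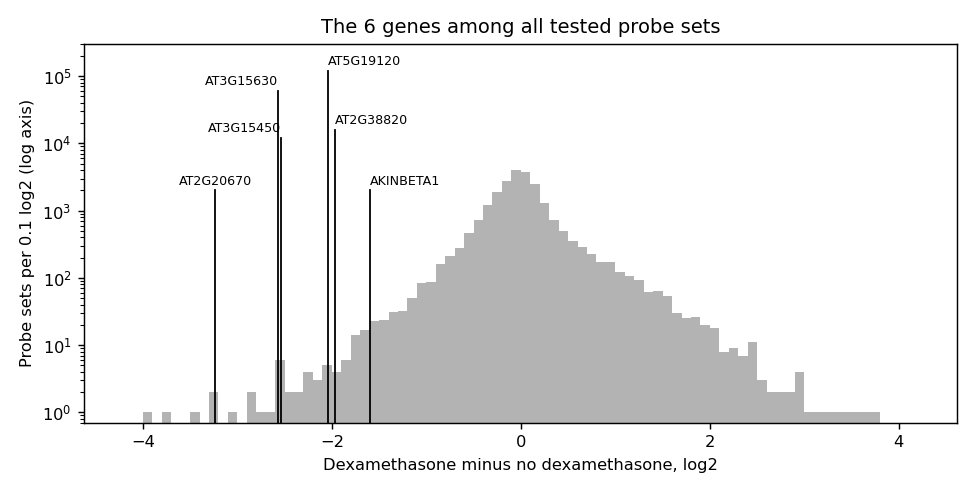
Number of tested probe sets (vertical axis, log scale) by log2 difference, dexamethasone minus no dexamethasone (horizontal axis), with a line at each of the 6 genes. The lines stand in the lower tail, from -3.23 for AT2G20670 to -1.60 for AKINBETA1.

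The 6 genes differed in how the replicates sat. AKINBETA1 was lower in dexamethasone replicate 2 than in replicate 1, by 0.51, while the other 5 genes were higher there. That excess was 0.59 in AT2G20670 and 0.62 in AT2G38820, but between 0.16 and 0.21 in the other 3. The median distance between the 2 dexamethasone arrays over all probe sets was 0.15, and 93.5% of probe sets had a smaller distance than AKINBETA1, 95.7% than AT2G20670 and 96.3% than AT2G38820. In the untreated pair the distance was 0.07 for AKINBETA1 and 0.41, the widest of the 6, for AT3G15630, against a median of 0.18 over all probe sets. When 1 array was left out, the AKINBETA1 difference ran from -1.86 to -1.34 and that of AT2G20670 from -3.53 to -2.94.

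Root markers differed within the untreated pair. EXPA7 and EXPA18, expansin genes of root hairs, read 4.59 and 4.98 in dexamethasone replicate 1, 4.97 and 5.20 in dexamethasone replicate 2, 5.03 and 4.86 in untreated replicate 1, and 6.25 and 6.46 in untreated replicate 2. PYK10, a root beta-glucosidase gene, had 11.82 and 12.01 with dexamethasone against 11.57 and 12.28 without it. These were the 3 of 8 root markers with a probe set of their own. Their summed linear signal, nearly all of it from PYK10, was 3683 and 4192 with dexamethasone against 3102 and 5127 without it. EXPA7 failed to exceed the control level in 1 array, and the other 2 exceeded it in all 4. Without untreated replicate 2, the array richest in these transcripts, the median difference of the 6 genes was -2.28, against -2.29 with it. That move is set by the gaps within the untreated pair, which were at most 0.41 in the 6 genes. PYK10 also stayed high in the other 3 arrays. Whether root tissue contributed to the differences was not tested.

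The relatives of the 6 genes were then compared with limma over all probe sets, with a call at a Benjamini-Hochberg adjusted p below 0.05. That test called 2.37% of the probe sets, 1.49% as higher and 0.879% as lower. An unadjusted limma p below 0.05 was found for 3902 of the 22746 probe sets. The lists of relatives were written from general knowledge, as the reference gene table names no such families, and they may be incomplete. In the 8 pathway and family lists, 23 of the 95 genes other than the 6 had a probe set of their own. Of these, 1 was called higher, 1 was called lower and 21 were not called. Their median difference was -0.03, beside -0.02 over all probe sets. It pools lists whose own medians ran from -0.39 (dark-induced and sugar-repressed genes) to 0.77 (aspartyl protease group). Of the 23, 10 had both dexamethasone arrays below both untreated arrays, as in 24.8% of all probe sets. Another 7 had both above, an arrangement whose share over all probe sets was not counted. The number of calls depended on which arrays entered the fit. Over all probe sets limma called 339 higher and 200 lower with 4 arrays, 734 and 458 without untreated replicate 1, and 243 and 189 without untreated replicate 2. It called 0 without dexamethasone replicate 1 and 0 without dexamethasone replicate 2, with 2672 and 2448 at an unadjusted p below 0.05, and such a fit takes its spread from the remaining pair alone.

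The other beta subunits of SnRK1 were near 0. AT4G16360, the beta2 subunit gene, had 8.42 and 8.60 with dexamethasone against 8.45 and 8.62 without it, a log2 difference of -0.03 with a 95% interval of -0.39 to 0.33 (limma adjusted p = 0.961). AT2G28060, of the short beta3 subunit, had 8.27 and 8.30 with dexamethasone against 8.17 and 8.14 without it, a log2 difference of 0.13 with a 95% interval of -0.18 to 0.43 (limma adjusted p = 0.689). The dexamethasone and untreated arrays overlapped for beta2. Those of beta3 did not, though by a small margin, and the share of all probe sets in that arrangement was not counted. Whether the differences of the 3 beta subunit genes differ from each other was not tested, since AKINBETA1 was chosen for its fall. The other 7 listed genes of SnRK1 subunits and of the kinases that activate it, the catalytic subunits among them, were not analysed here, nor were any of the 19 listed trehalose 6-phosphate enzymes, which make and remove the sugar signal that restrains SnRK1.

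In the DUF506 family 4 further genes were measured, of 11 listed, and none was called by limma. At an unadjusted limma p below 0.05 stood 2 of the 4, beside 3902 of all 22746 probe sets. AT3G22970 had 6.19 and 6.31 with dexamethasone against 6.73 and 7.06 without it, a log2 difference of -0.64 ± 0.16 (limma adjusted p = 0.133). AT2G39650 had 8.98 and 8.19 with dexamethasone against 7.73 and 7.80 without it, a difference of 0.82 ± 0.28 (limma adjusted p = 0.225). In these 2 genes the groups did not overlap and the differences had opposite signs. The arrangement of AT3G22970, both dexamethasone arrays below both untreated arrays, was found in 24.8% of all probe sets. The share with the opposite arrangement, that of AT2G39650, was not counted, so nothing is read from either. AT3G07350 had 7.29 and 7.89 with dexamethasone against 8.34 and 7.96 without it, a log2 difference of -0.56 ± 0.25. It shared the arrangement of AT3G22970, by a small margin, and nothing is read from that. AT1G12030 stood at 0.09 ± 0.14, close to the control level.

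All 5 genes listed for the YGL and LRDR motif family had a probe set of their own. Of the 4 beside AT3G15450 none was called by limma. At an unadjusted limma p below 0.05 stood 1 of the 4, beside 3902 of all 22746 probe sets. AT4G27450 had 9.20 and 8.81 with dexamethasone against 10.12 and 9.93 without it. It had both dexamethasone arrays below both untreated arrays, as in 24.8% of all probe sets. Its log2 difference was -1.02 ± 0.18, 2.02-fold lower (limma adjusted p = 0.0658, and 0.0357 when replicate number was added as a block). AT3G22850 stood at -0.34 ± 0.41, with 7.21 and 8.40 in the untreated arrays alone, AT5G43830 stood at 0.11 ± 0.22, and AILP1 stood at 0.14 ± 0.12 (limma adjusted p = 0.663).

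In the aspartyl protease group 3 of the 5 listed genes were measured, AT5G19120 among them, and these 3 lie side by side. In the order of the reference gene table (TAIR10.1), AT5G19100 and AT5G19110 come directly before AT5G19120, and AILP1 of the YGL family follows with 1 gene between. AT5G19110 had 6.97 and 7.04 with dexamethasone against 5.92 and 6.13 without it, so it was higher in both treated arrays. The share of all probe sets in that arrangement was not counted. The log2 difference of AT5G19110 was 0.98 ± 0.14, or 1.97-fold (limma adjusted p = 0.0436). That call ended with an intensity trend in the variance model (limma adjusted p = 0.0535), at the same difference, and without any 1 of the 4 arrays (0.05005 to 0.262), at differences of 0.88 to 1.09. AT5G19100 had 7.53 and 7.62 with dexamethasone against 6.94 and 7.07 without it, a difference of 0.57 ± 0.13 (limma adjusted p = 0.108). The 2 genes thus had differences of the opposite sign to AT5G19120, and the gene after it, AT5G19130, stood at -0.25 ± 0.14 (limma adjusted p = 0.463).

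Neighbours of the other genes were looked up in the same way, a choice made after the values were seen. Of the 24 protein-coding genes within 2 places of the 6 genes, 13 were measured, with a median difference of -0.11. Beside 2.37% of all probe sets, 2 of these 13 were called. One was AT5G19110. The other was AT3G15440, next to AT3G15450, with 3.29 and 3.37 with dexamethasone against 4.45 and 4.38 without it (log2 difference -1.09 ± 0.12, limma adjusted p = 0.0338). All 4 of its values lay below the control level of their arrays, so that difference carries little information. AT3G15460, on the other side of AT3G15450, stood at -0.10 ± 0.25. AT3G15450 and AT3G15630 lie on the same chromosome with 21 genes between them.

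Among 29 listed genes induced by darkness and repressed by sugar, 7 were measured, and 1 of them was called lower. This was AT4G33150, of the enzyme that starts lysine breakdown, with 7.75 and 7.75 in the dexamethasone arrays against 8.69 and 8.68 in the untreated arrays. The replicates were nearly equal, and the log2 difference was -0.93 ± 0.12, or 1.91-fold lower (limma adjusted p = 0.0372). That call ended without untreated replicate 2 (limma adjusted p = 0.0625), without dexamethasone replicate 1 (0.258) and without dexamethasone replicate 2 (0.238), while the difference stayed between -0.94 and -0.93. In 6 of the 7 genes both dexamethasone arrays lay below both untreated arrays, as in 24.8% of all probe sets, and the median of the 7 was -0.39, beside -0.02 over all probe sets. At an unadjusted limma p below 0.05 stood AT4G33150, MCCA and ETFQO but not the rest of the 7, beside 3902 of all 22746 probe sets. The differences not past the test were -0.74 ± 0.16 for MCCA (limma adjusted p = 0.0919) and -0.39 ± 0.16 for MCCB, subunits of the carboxylase of leucine breakdown. IVD, which acts before it, stood at -0.24 ± 0.14. ETFQO and D2HGDH, which pass electrons from such breakdown to the respiratory chain, stood at -0.60 ± 0.16 and -0.34 ± 0.17. PPDK, which links pyruvate and phosphoenolpyruvate, stood at 0.22 ± 0.17. The 6 genes described above were each lower than any of these 7 in difference, as their choice for large falls provides.

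The bZIP factors of the S1 and C groups, which act with SnRK1 on starvation genes, had 2 of 9 listed genes measured and none called (limma, with 0 of the 2 at an unadjusted p below 0.05). The gene bZIP44 had 8.48 and 8.48 with dexamethasone against 7.15 and 8.15 without it, a log2 difference of 0.83 ± 0.34 (limma adjusted p = 0.309). Its size depended on the untreated pair, since leaving out untreated replicate 1 gave 0.33 and leaving out untreated replicate 2 gave 1.33 (limma adjusted p = 0.037). BZIP53 stood at -0.20 ± 0.14. Of 10 listed genes that sugar raises, 2 were measured and none was called (limma, with 0 of the 2 at an unadjusted p below 0.05). APL4 and APL3, large subunits of the first enzyme of starch synthesis, stood at 0.29 ± 0.19 and 0.21 ± 0.26, and APL3 did not exceed the control level in 2 arrays.

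**Figure D3:**
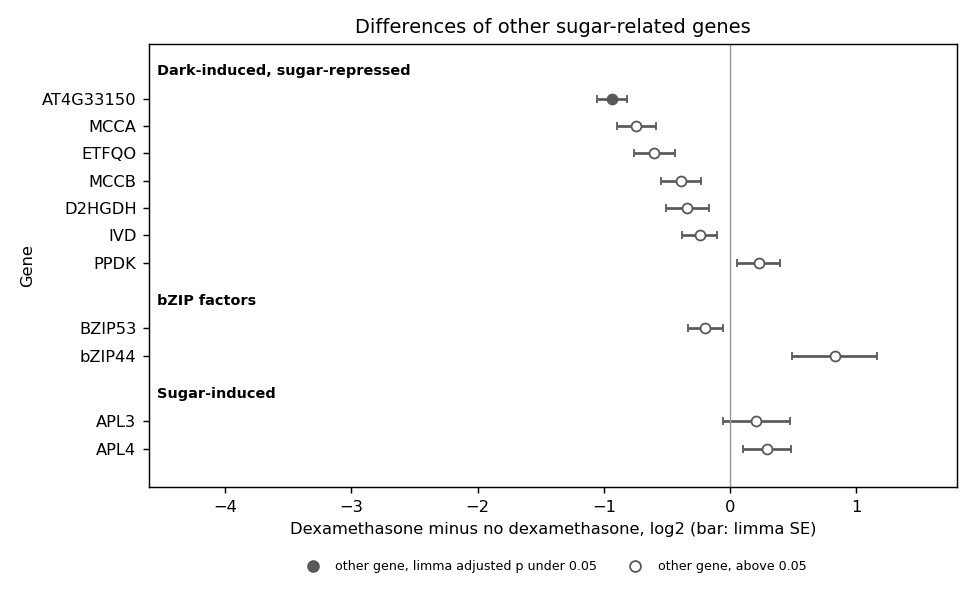
Log2 differences, dexamethasone minus no dexamethasone (horizontal axis, bars limma standard errors), of the measured genes of 3 lists, filled where the limma adjusted p is below 0.05. The filled circle is AT4G33150 at -0.93, and 6 of the 7 genes of the top list lie below 0.

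The genes whose 4 values were most like those of the 6 were found by Euclidean distance, in log2 units, between profiles centred on each gene's own mean over the 4 arrays. Among the 6, AT3G15450 and AT3G15630 were closest to each other, at 0.19, followed by AT5G19120 and AT2G38820 at 0.34. AKINBETA1 and AT2G20670 were the furthest apart, at 1.81, and the DUF506 genes stood 1.27 from each other. Of 13280 other genes, the nearest to the mean profile of the 6 were AT2G39920 at 0.34, the expansin gene EXPA8 at 0.35, AT1G23390 at 0.35, AT4G14270 at 0.45 and P1R3 at 0.48. P1R3 lay below the control level in both dexamethasone arrays, so its fall and its distance are uncertain. AT3G62550, AT3G07310, AT3G52070, the auxin-response gene IAA29 and AT1G49200 followed, at 0.50 to 0.59.

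The nearest to AKINBETA1 alone was GID1A, a gibberellin receptor gene, at a distance of 0.25, with 6.92 and 6.64 with dexamethasone against 8.47 and 8.15 without it. Like AKINBETA1 it was lower in dexamethasone replicate 2 than in replicate 1. AT4G26600 at 0.30, THIC, of thiamine synthesis, at 0.31, AT3G47800 at 0.31 and AT4G19860 at 0.31 came next. Each was lower in dexamethasone replicate 2 too. The distance to AKINBETA1 includes that step, so the shared direction is partly built into the choice of these genes. With 4 arrays in 2 groups these distances mostly reflect the size of the fall, and they are given as a description.

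**Figure D4:**
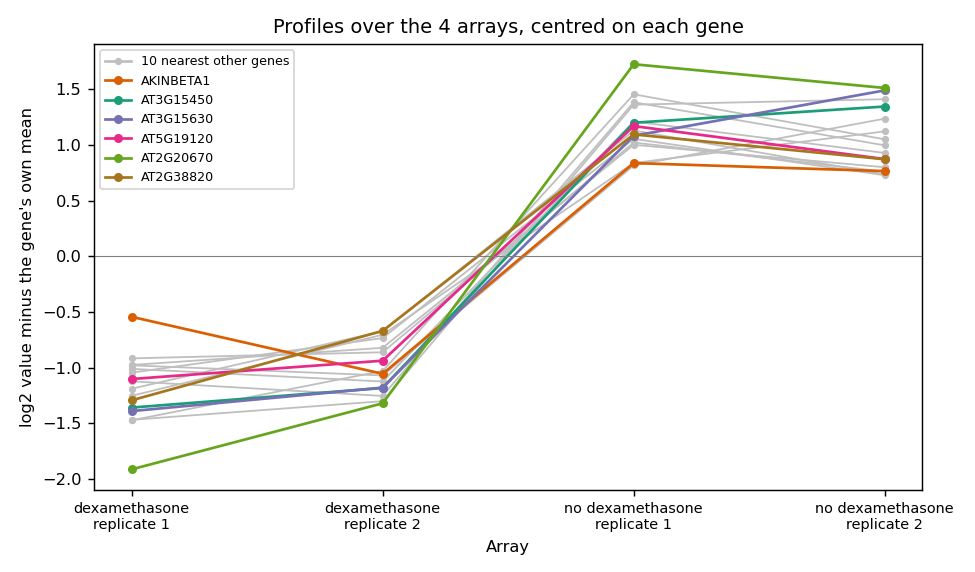
Log2 values minus each gene's own mean (vertical axis) in the 4 arrays (horizontal axis) for the 6 genes (coloured) and the 10 other genes nearest to their mean profile (grey). AKINBETA1 is lower in the second than in the first dexamethasone array, and the other 5 coloured genes are higher there.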

How the data were processed

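The authors deposited log2 expression values, one per probe set and array, made with RMA and the affy package per the submitters' processing notes. No version, filter or quality check is given in the sources used here. RMA gives arrays a common distribution, so a shift shared by all transcripts is not visible. Of 22810 probe sets, 64 controls were left out. Of the 22746 others, 13513 matched 1 gene, 503 several and 8730 were unnamed here, and 13436 were found in the reference gene table (TAIR10.1). A gene with several probe sets was represented by the brightest.

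Groups and replicate numbers came from the sample titles, and the series text calls the replicates biological. Array signals carry no read depth, and 2 arrays per group limit the precision. The comparison used R 4.3.3 and limma 3.58.1 (lmFit, eBayes, two-sided, Benjamini-Hochberg over 22746 probe sets), and the fit was tested on simulated data. Tables and plots used Python 3.11.15. Intervals are limma's, not adjusted.

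The 6 genes, the 8 pathway lists and 2 marker lists were chosen with earlier results of these data known. Named genes are the 6, the called genes of each list or else the 2 of smallest p, and the 10 and 5 nearest profiles. Other measured list genes and neighbours were named after their values were seen. The correlation of replicate deviations between the groups was 0.227, with only 2 pairs, so numbers were not treated as pairs. The targeted gene LEC1 was not analysed here. Alternatives were a replicate block, 2 scalings, dim probe sets left out, an intensity trend, an adjusted p of 0.1, mean probe sets and each array left out.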

Additional observations from a re-analysis of the deposited data

How the results depend on the processing

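The median difference of the 6 genes was -2.45 to -2.21 when 1 array was left out. Groups that do not overlap cannot reverse that way, and with 2 arrays the size of the move is set by the pair's own gap, so this is no sign of stability. It was -2.305 after quantile normalization once more and -2.28 with arrays centred on their medians. With the replicate block their median was -2.29, limma called 559 probe sets higher (339 without it) and 2 list genes lower, AT4G27450 and AT4G33150. An adjusted p of 0.1 gave 779 higher and 532 lower (200 at 0.05) and 3 list genes lower. The trend called 0 list genes higher (AT5G19110, limma adjusted p = 0.0535, unadjusted count over all probe sets 3734). With 1 array left out, limma's calls ran from 0 to 734 (higher) and from 0 to 458 (lower), with 2448 to 4510 at an unadjusted p below 0.05, and from 0 to 1 list genes in each direction; the lone array was assumed to vary like the other group. The 1 higher without untreated replicate 2 was bZIP44. Uncalled differences that crossed 0 then were AT1G12030 (-0.023 to 0.21), AT3G15460 (-0.46 to 0.25), AT3G22850 (-0.93 to 0.26), AT4G16360 (-0.12 to 0.063), APL3 (-0.098 to 0.51) and AT5G43830 (-0.17 to 0.40). The cause was not tested. Signal near the control level limits dim genes.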
